A study of Sus scrofa with 14 samples.

Results

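In all, 10 genes of the chemokine system were followed in the mammary gland and milk of pigs: the chemokine ligands CXCL2, CXCL8, CXCL10, CXCL12, CXCL14, CCL2, CCL5 and CCL21, and the atypical chemokine receptors ACKR1 and ACKR4. They were taken by symbol, and all 10 were found among the 30071 gene identifiers of the deposited count tables. Nuclei came from snap-frozen gland tissue of multiparous sows in their second breeding cycle, 2 sows at each of 5 stages: day 90 of gestation (G90), day 0 and day 20 of lactation (L0 and L20), and 2 and 7 days into natural involution (PI2 and PI7). Tissue sections on spatial arrays came from 1 gland at G90 and 1 at PI2, and milk cells from 1 sample at L0 and 1 at L20, so sections and milk have no replicates. The labels name no transgene and no agent in any group. Each measurement is a count of unique molecular identifiers (UMIs), each of which marks 1 captured RNA molecule, and levels are given as counts per 1e+06 UMIs (CPM).

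Chemokines are small secreted proteins that steer leukocytes and other cells along concentration gradients through G protein-coupled receptors. CXCL2 and CXCL8 attract neutrophils, CCL2 attracts monocytes, CCL5 and CXCL10 attract effector T cells, CCL21 guides dendritic cells and T cells towards lymphatic vessels, and CXCL12 and CXCL14 are largely homeostatic ligands of tissue. Atypical receptors bind chemokines without the usual G protein signal: ACKR1 carries inflammatory chemokines across venular endothelium, and ACKR4 binds and removes CCL19, CCL21 and CCL25. In the mammary gland chemokines are known mostly from mastitis, from the leukocytes of milk and from the clearing of tissue after weaning.

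With 300 or more genes and no more than 25% of UMIs from mitochondria required, 126833 gland nuclei remained. Each took the class whose marker genes were detected most often in it, and none of the 10 genes was a marker. The gate left 24895 nuclei (19.6%) without a class, and placed 70471 as epithelial, 1697 as myoepithelial, 433 as mural, 12059 as fibroblast, 663 as adipocyte, 3336 as blood endothelial, 4022 as lymphatic endothelial, 4570 as macrophage, 4054 as T and NK, 599 as B and plasma and 34 as neutrophil. In each class its own marker list had the highest summed level of the 11 lists, which the gate largely sets in advance. In sows with at least 20 nuclei of a class, the class won by only 1 marker in 81.7% of B and plasma nuclei. The share was 62.6% in myoepithelial, 58.7% in mural, and 44.2% to 44.4% in macrophage and both endothelial classes. It was 14.5% to 30.9% in epithelial, fibroblast, adipocyte and T and NK nuclei. A class entered a sow's sums with at least 20 nuclei, which all 10 sows reached for 7 classes, 7 sows for B and plasma, 5 for mural and 3 for adipocyte nuclei. Neutrophil nuclei reached it in none, so levels in neutrophils come from milk alone. The second gland of L20 stood apart, with 9.8% epithelial, 32.6% fibroblast and 14.2% macrophage nuclei and 525 of the 663 adipocyte nuclei. Milk protein genes also set 2 glands at odds with their labels. CSN2 (beta-casein) and LALBA (alpha-lactalbumin) measured 5.67 and 1.37 CPM in the library labelled second gland of L20, against 192 to 2014 and 133 to 661 CPM in the other 3 labelled L0 or L20. In the library labelled second gland of PI2 they measured 478 and 92.2 CPM, against 0.19 to 2.22 and 0 to 0.64 CPM in the other 3 labelled PI2 or PI7. At G90 the second gland had 2443 CPM of CSN2, the highest of the 10 libraries, and 61.2 CPM of LALBA, against 93.7 and 0.91 CPM in the first. Lactation and involution below are these labels, and stage results are also given without both glands. Gland libraries held 18962138 to 53165191 UMIs, and any pair of them shared at most 1.23% of barcodes.

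The upstream windows of 3 genes are shown first, since CXCL2 and CXCL8 reached their highest whole-gland levels in the same glands and CXCL10 varied over classes and sows with genes of the interferon response (values below). Each holds the 250 bases before the annotated gene start, 5′ to 3′ on the gene's strand, read from the RefSeq genome Sscrofa11.1. Capitals mark matches to the NF-kB consensus of 10 bases, to the interferon element GAAANNGAA (both on either strand) and to the TATA box TATAAA on the gene's strand. CXCL2 lies on the plus strand with its window at chr8:70157003-70157252, CXCL8 on the plus strand at chr8:69932396-69932645, and CXCL10 on the minus strand at chr8:71695949-71696198.
CXCL2: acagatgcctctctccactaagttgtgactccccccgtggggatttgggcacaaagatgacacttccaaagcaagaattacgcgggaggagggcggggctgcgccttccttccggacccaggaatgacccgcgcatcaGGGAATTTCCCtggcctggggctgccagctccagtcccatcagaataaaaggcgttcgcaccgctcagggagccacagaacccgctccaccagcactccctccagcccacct
CXCL8: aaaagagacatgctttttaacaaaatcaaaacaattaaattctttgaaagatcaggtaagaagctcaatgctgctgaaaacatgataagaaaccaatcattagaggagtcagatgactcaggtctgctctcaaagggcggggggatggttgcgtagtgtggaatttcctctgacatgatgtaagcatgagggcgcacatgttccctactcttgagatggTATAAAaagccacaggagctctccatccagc
CXCL10: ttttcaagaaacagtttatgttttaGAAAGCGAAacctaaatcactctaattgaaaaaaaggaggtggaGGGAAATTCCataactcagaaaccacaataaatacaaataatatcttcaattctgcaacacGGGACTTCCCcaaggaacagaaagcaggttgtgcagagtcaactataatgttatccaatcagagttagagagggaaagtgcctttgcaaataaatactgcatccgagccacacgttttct

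Over 19531 protein-coding genes with such a window, 14.0% had a match to the NF-kB consensus, 6.71% to the interferon element and 6.14% to the TATA box. Of the 10 genes, CXCL2, CXCL10, CCL5 and CCL21 matched the NF-kB consensus, and overlapping matches in CXCL2 form 1 run of capitals. CXCL10 alone matched the interferon element, with the match starting at -225. CXCL8 and CCL5 matched the TATA box, at -31 and -30. A match is a string of letters in a window, not a measured binding site.

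The first question was in which classes these genes were higher. Each class was compared with all other gated nuclei of the same sows by edgeR, with the sow as a block, and a gene was called higher at an adjusted p under 0.05 and a log2 fold change over 1. All 10 genes were called higher in at least 1 of 10 classes, 5 of them in 1 class and 5 in 2, and 9 classes had at least 1 of the genes called. Of the 14929 genes tested in at least 9 classes, 44.2% were called higher in at least 1, 27.3% in 1 and 9.57% in 2. Of 99 tests of the 10 genes, 15 were called higher and 45 lower, beside 7.5% and 11.2% of 161558 tests over all genes. The median log2 difference of the 10 genes was below 0 in 9 of 10 classes, from -2.14 in adipocyte nuclei and -1.87 in epithelial nuclei to 0.14 in blood endothelial nuclei, and that of all genes ran from -0.37 to 0.11. The counts by class, each beside the share of all genes tested that were called higher there, were as follows. Fibroblast nuclei had 3 of 10 (9.73% of all genes), blood endothelial 3 of 10 (8.73%) and macrophage 3 of 10 (9.21%). Epithelial (9.68%), myoepithelial (5.85%), adipocyte (2.84%), lymphatic endothelial (9%) and T and NK nuclei (9.84%) had 1 of 10 each. Mural nuclei had 1 of 9 (5.35%), and B and plasma nuclei 0 of 10 (4.76%). The heat map of class means shows the pattern.

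**Figure D1:**
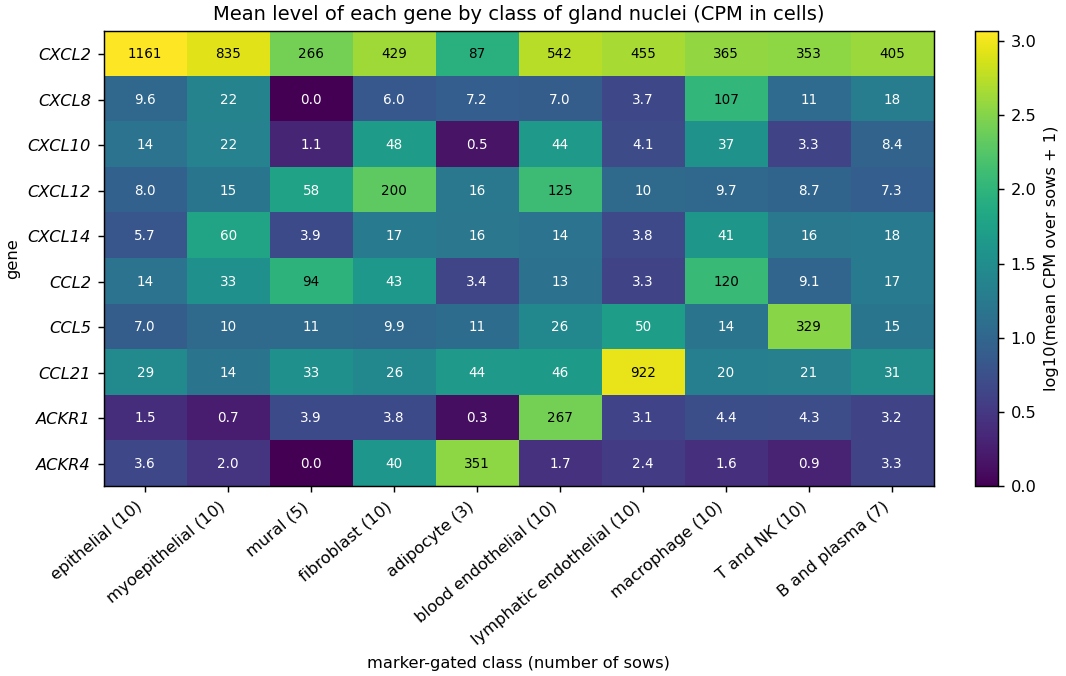
Mean level of each gene (rows) in each marker-gated class of gland nuclei (columns, with the number of sows), printed in CPM and coloured as log10(mean CPM + 1). CCL21 peaks at 922 CPM in lymphatic endothelial nuclei, ACKR4 at 351 in adipocyte nuclei, CCL5 at 329 in T and NK nuclei and ACKR1 at 267 in blood endothelial nuclei, while CXCL2 is at 86.5 CPM or more in every class.

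CXCL2, a neutrophil attractant (ENSSSCG00000008959, chromosome 8, 70157253 to 70159145), was the most widespread of the ligands. Epithelial nuclei held 81.1% of its UMIs in the glands. Its epithelial level was 179 and 150.5 CPM (G90), 1249 and 986 (L0), 3372 and 387 (L20), 989 and 2763 (PI2), and 491 and 1039 (PI7). Thus both G90 glands lay below all 8 later glands. Over the stages edgeR did not call CXCL2 in epithelial nuclei, and DESeq2 did (DESeq2 adjusted p = 0.019). How many of all genes separate these glands in the same way is not given here. Against the other gated nuclei, epithelial nuclei were higher in 9 of 10 sows, by 1.67 (SE 0.25) on the log2 scale (edgeR adjusted p = 5.2e-05). Every other class carried CXCL2 as well: in T and NK nuclei it was 11% to 43.8% of the epithelial level of the same gland (median 25.5%), and in myoepithelial nuclei 22.6% to 155% (median 62.7%). Adipocyte nuclei had the lowest median, 6.44% over 3 sows (2.16% to 22.7%). At G90 the order turned, with blood endothelial nuclei at 1051 and 446 CPM against 179 and 150.5 in epithelial nuclei. In the 8 later glands blood endothelial nuclei were lower than epithelial nuclei, at 145 to 1354 CPM. Thinned to 1000 UMIs per nucleus, 40.6% of epithelial nuclei had a CXCL2 UMI and 9.1% of T and NK nuclei did (unthinned 53.8% and 11.3%, at median depths of 2369 and 1048 UMIs). The part of RNA free in the suspension in the lower shares was not tested. The genes most like CXCL2 over 85 class-by-sow sums were LTF (Pearson r = 0.76), LBP (r = 0.75) and ELF3 (r = 0.74). These encode lactoferrin and lipopolysaccharide-binding protein, both secreted defence proteins, and an epithelial transcription factor. The 85 points share sows, depth and class sizes, here and for the genes below, and each gene was compared with 9870 others. CXCL2 has close paralogs in the pig, and how reads of such copies were divided is uncertain.

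CXCL8, the prototype neutrophil chemokine (ENSSSCG00000008953, chromosome 8, 69932646 to 69935861), was called in macrophage nuclei. There it measured 212 and 25.8 CPM (G90), 91.0 and 257 (L0), 43.3 and 0.8 (L20), 18.2 and 381 (PI2), and 14.2 and 26.6 (PI7). All 10 sows had more in macrophages than in their other gated nuclei, by 2.64 (SE 0.47) on the log2 scale (edgeR adjusted p = 9.2e-05). The spread was wide, and the count behind it small, with 310 UMIs in 4570 nuclei. Mural nuclei had no CXCL8 UMI in any of 5 sows. Over the sums its likest genes were HACD4 (r = 0.65), RNF128 (r = 0.64) and TNFSF13B (r = 0.61), the last of which encodes the B cell survival factor BAFF.

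CXCL10, an interferon-induced ligand of CXCR3 (ENSSSCG00000032474, chromosome 8, 71693641 to 71695948), was dominated by 1 gland. In fibroblast nuclei it was 12 and 258 CPM (G90), 44.5 and 15.2 (L0), 13.5 and 9.4 (L20), 1.6 and 85.5 (PI2), and 17.9 and 23.2 (PI7). The second G90 gland also had the highest level in blood endothelial (212 CPM), macrophage (220 CPM) and epithelial nuclei (65.4 CPM). In that gland 1474 of 15653 epithelial nuclei (9.42%) and 81 of 330 fibroblast nuclei (24.5%) had a CXCL10 UMI, against 3 of 220 T and NK nuclei (1.36%). These shares are not thinned, and median depths there were 2766, 1884.5 and 997 UMIs in that order. Over all sows CXCL10 was called higher in fibroblast nuclei by 1.46 (SE 0.26; edgeR adjusted p = 0.00024, higher in 9 of 10 sows) and in blood endothelial nuclei by 1.2 (SE 0.38; edgeR adjusted p = 0.017, higher in 7 of 10 sows). The fibroblast call was lost under 2 of 18 alternative settings and the blood endothelial call under 6 of 18. Among the latter were the fits without the second G90 gland (1.12 on the log2 scale) and without the second L0 gland (0.89). Fibroblast nuclei held 9.2% of the CXCL10 UMIs in the glands, blood endothelial nuclei 2.7% and the far more numerous epithelial nuclei 74.5%. Among the genes most like CXCL10 were RSAD2 (r = 0.65) and IFI6 (r = 0.64), both interferon-induced antiviral genes. In the whole gland these too were highest in the second G90 gland: RSAD2 at 272 CPM against 2.6 to 56.3 in the other 9, and IFI6 at 252 against 3.9 to 102.

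CXCL12, the ligand of CXCR4 that retains leukocytes and progenitors in tissue (ENSSSCG00000034973, chromosome 14, 91516383 to 91543857), marked stroma and vessels. Fibroblast nuclei measured 49.7 and 192 CPM (G90), 127 and 76.0 (L0), 87.6 and 134 (L20), 382 and 152 (PI2), and 352 and 445 (PI7). In blood endothelial nuclei the values were 88.9 and 31.9 CPM (G90), 221 and 155 (L0), 36.8 and 55.8 (L20), 154 and 48.0 (PI2), and 236 and 226 (PI7). Fibroblast nuclei exceeded the other nuclei in 10 of 10 sows by 4.34 (SE 0.34) on the log2 scale (edgeR adjusted p = 3.6e-08). The excess in blood endothelial nuclei was 2.68 (SE 0.47) in 9 of 10 sows (edgeR adjusted p = 0.00014). The 2 classes themselves differed by 0.69 (SD 1.2, n = 10 sows) on the log2(CPM + 1) scale, fibroblast nuclei above in 7 of 10 sows, with p = 0.11 by an exact sign-flip permutation test (adjusted 0.43). Lymphatic endothelial nuclei, in contrast, lay at 0 to 36.0 CPM. The likest genes were PTGIS (r = 0.81), MMP2 (r = 0.77) and SPARC (r = 0.77), which encode prostacyclin synthase, a matrix-degrading protease and a matrix glycoprotein.

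CXCL14 (ENSSSCG00000014310, chromosome 2, 137803988 to 137813118) is a ligand made by epithelia and attractive to monocytes and dendritic cells. Its mean level was highest in myoepithelial nuclei, the contractile cells around the alveoli. They measured 60.2 and 28.5 CPM (G90), 46.2 and 0 (L0), 34.7 and 83.6 (L20), 156 and 4.5 (PI2), and 59.2 and 128 (PI7). Myoepithelial nuclei were above the rest in 9 of 10 sows by 2.93 (SE 0.41; edgeR adjusted p = 5.3e-06). Luminal epithelial nuclei carried little, at 0.2 to 18.8 CPM. Macrophages were called as well, by 1.93 (SE 0.32; edgeR adjusted p = 4.1e-05), with 6 of 10 sows above the rest. In macrophages the level was 1.7 and 4.3 CPM (G90), 0 and 0 (L0), 37.1 and 33.0 (L20), 59.2 and 0 (PI2), and 114 and 163 (PI7), with the 2 glands of PI2 far apart. Myoepithelial nuclei lay above macrophages in 6 of 10 sows, by 1.63 (SD 2.14) on the log2(CPM + 1) scale. An exact sign-flip permutation test gave p = 0.035 (adjusted 0.27). Macrophages were higher in the first gland of L20 and in both of PI7. BHLHE41 (r = 0.64), SLC9B2 (r = 0.61) and C8orf89 (r = 0.60) were most like it.

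CCL2, the main attractant of monocytes (ENSSSCG00000017723, chromosome 12, 40798109 to 40800013), was called in macrophage and in mural nuclei. Macrophages measured 94.8 and 495 CPM (G90), 228 and 120 (L0), 86.5 and 18.4 (L20), 13.7 and 111 (PI2), and 11.2 and 18.7 (PI7). They lay above the other nuclei in 9 of 10 sows, by 2.62 (SE 0.77; edgeR adjusted p = 0.0092). Of the CCL2 UMIs in the glands, macrophage nuclei held 9.8%, mural nuclei 1.5% and the far more numerous epithelial nuclei 48.1%. Mural nuclei, the pericytes and smooth muscle of vessels, measured 195 CPM in the first G90 gland, 9.2 in the second of L20, 56.8 in the first of PI2, and 178 and 32.2 at PI7. Mural nuclei exceeded the rest in 4 of 5 sows by 2.84 (SE 0.47; edgeR adjusted p = 7.6e-08), on 64 UMIs. The rest measured 6.1, 14.2, 1.7, 23.8 and 11.8 CPM in the same order, so the excess varied widely between sows. The SE and p of this fit do not reflect that spread. With nuclei that held 2 or more markers of another class removed, the mural call was lost, at 1.61. Myoepithelial nuclei had 0 to 115 CPM and a log2 difference of 0.92 (SE 0.31; edgeR adjusted p = 0.035), under the fold limit. PLAU (r = 0.68), GNB4 (r = 0.58) and ADAP2 (r = 0.54) varied most like CCL2, PLAU being the urokinase of tissue remodelling.

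CCL5, a chemokine of activated T and NK cells (ENSSSCG00000017705, chromosome 12, 39652731 to 39659121), was concentrated in those cells. T and NK nuclei measured 549 and 71.7 CPM (G90), 282 and 192 (L0), 65.6 and 314 (L20), 442 and 352 (PI2), and 324 and 697 (PI7). The other gated nuclei of the same sows averaged 9.45 CPM (SD 8.72, n = 10), so T and NK nuclei were higher in 10 of 10 sows by 5.11 (SE 0.29; edgeR adjusted p = 1.4e-14). Thinned to 1000 UMIs, 24.0% of T and NK nuclei and 0.52% of epithelial nuclei had a CCL5 UMI (unthinned 26.8% and 1.2%). Lymphatic endothelial nuclei came next in the order of means, at 0 to 227 CPM, followed by blood endothelial nuclei, at 0 to 111 CPM. Neither endothelial class was called. The T cell genes CD96 (r = 0.84), CD3E (r = 0.81) and CD8A (r = 0.81) were most like CCL5, and CD96 and CD3E are themselves markers of the gate.

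CCL21, the ligand of CCR7 displayed by lymphatic vessels (ENSSSCG00000038162, chromosome 10, 32093783 to 32094482), separated lymphatic from blood endothelium. Lymphatic endothelial nuclei measured 650.1 and 330.2 CPM (G90), 2433 and 1047 (L0), 212 and 732 (L20), 943 and 249.7 (PI2), and 835 and 1793 (PI7). The lowest of these, in the first gland of L20, was above the highest value of any other class in any sow (154 CPM, blood endothelial). The excess over the rest was 4.78 (SE 0.33) in 10 of 10 sows (edgeR adjusted p = 3.2e-12). Thinned to 1000 UMIs, 39.7% of lymphatic endothelial nuclei had a CCL21 UMI, against 2.3% of epithelial, 2.4% of fibroblast and 2.6% of macrophage nuclei. Unthinned, the share was 48.0% in lymphatic endothelial and 5.4% in epithelial nuclei, at median depths of 1658 and 2369 UMIs. Epithelial nuclei, the most numerous class, held 30.8% of all CCL21 UMIs, and lymphatic endothelial nuclei 42.4%. The genes that varied most like CCL21 were LYVE1 (r = 0.90), SYNPR (r = 0.88) and MMRN1 (r = 0.86), of which LYVE1 and MMRN1 are lymphatic markers of the gate.

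ACKR1, the Duffy antigen receptor of venules (ENSSSCG00000036223, chromosome 4, 91224089 to 91225610), had the largest log2 difference among the 15 higher calls of the 10 genes. Blood endothelial nuclei measured 84.2 and 37.2 CPM (G90), 374 and 129 (L0), 1121 and 175 (L20), 143 and 221 (PI2), and 189 and 199 (PI7). The other nuclei of the same sows averaged 1.89 CPM (SD 1.87, n = 10), and the difference was 7.15 (SE 0.38) on the log2 scale in 10 of 10 sows (edgeR adjusted p = 3.0e-11). Lymphatic endothelial nuclei had 30 ACKR1 UMIs in 4022 nuclei, at 0 to 15.7 CPM. Within blood endothelial nuclei thinned to 1000 UMIs, 336 of 2587 had an ACKR1 UMI and 276 a CXCL12 UMI. Both were found in 17 nuclei, where independent occurrence within each of 8 glands would give 36.9. The first PI7 gland, with 978 of these nuclei, supplied most of the gap, with 10 found and 21.9 under independence. The gap was not tested. Other pairs of the genes, and other classes, were counted as well and are not reported here. BTNL9 (r = 0.89), CLEC1A (r = 0.86) and LHX6 (r = 0.85) were likest to ACKR1.

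ACKR4, the scavenger of CCL19 and CCL21 (ENSSSCG00000011630, chromosome 13, 73773862 to 73777770), was a gene of adipocytes and fibroblasts. Adipocyte nuclei measured 303 CPM in the second gland of L20 (645 UMIs in 525 nuclei, 95% Poisson interval 280.4 to 328), 336 in the first of PI2 (36 UMIs in 27 nuclei, 235 to 465) and 414 in the first of PI7 (39 UMIs in 42 nuclei, 294 to 565). Intervals here and below cover counting error only. These 3 glands gave a difference of 5.59 (SE 0.57) from the other nuclei (edgeR adjusted p = 1.9e-19, higher in 3 of 3 sows). The other gated nuclei measured 50.9, 3.14 and 2.14 CPM in the same order, so the excess varied widely between the 3 sows. The SE and p of this fit do not reflect that spread. Fibroblast nuclei measured 66.3 and 37.9 CPM (G90), 50.9 and 60.8 (L0), 30.8 and 109 (L20), 15.6 and 9.5 (PI2), and 6.3 and 11.9 (PI7). They were above the rest in 9 of 10 sows by 2.74 (SE 0.47; edgeR adjusted p = 0.00019). In the 3 glands with enough adipocyte nuclei, these lay above the fibroblasts of the same gland each time, by 3.88 (SD 2.22) on the log2(CPM + 1) scale, for which 3 pairs allow no test at the limit of 6. Blood and lymphatic endothelial nuclei carried 18 and 34 ACKR4 UMIs in all. AGT (r = 0.83), TEX26 (r = 0.79) and PTGER3 (r = 0.76) varied most like ACKR4, AGT being the angiotensinogen that adipose tissue secretes.

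**Figure D2:**
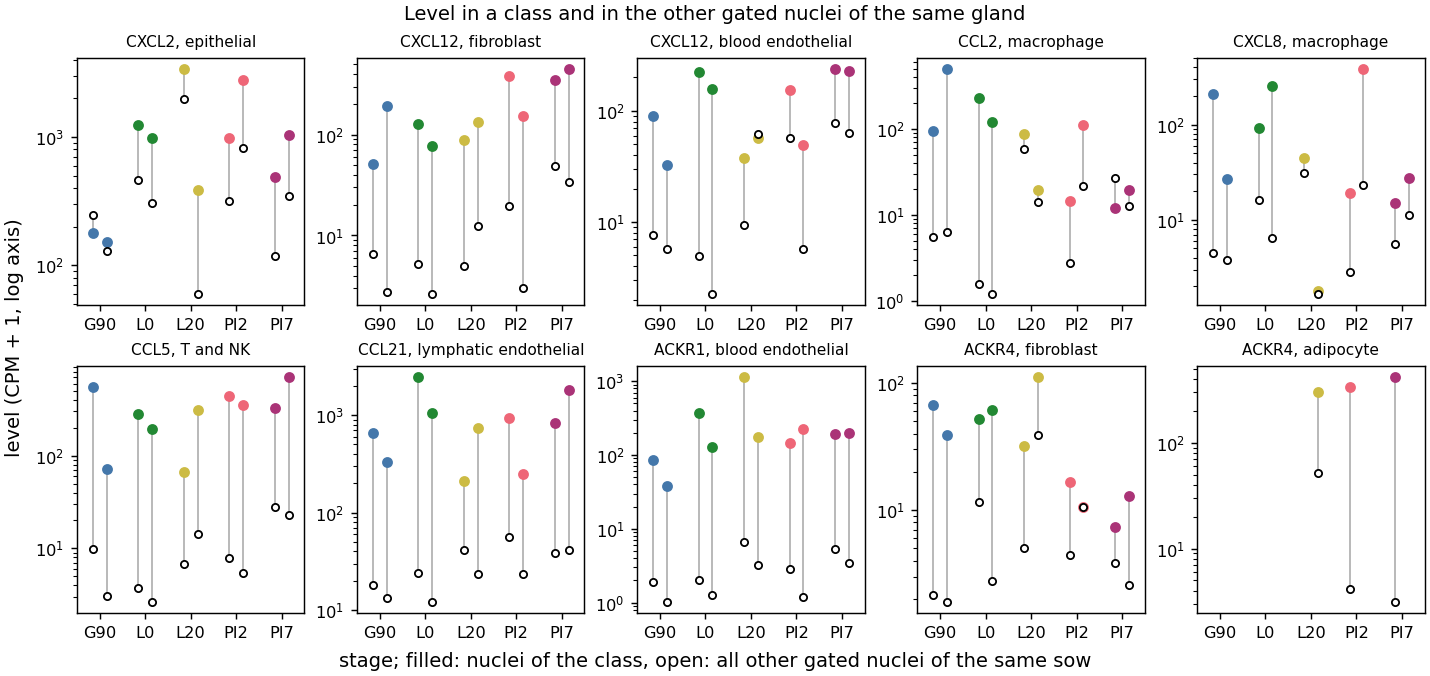
Level of a gene in nuclei of 1 class (filled points, coloured by stage) and in all other gated nuclei of the same sow (open points), as CPM + 1 on a log axis, with a line joining the pair of each sow. In lymphatic endothelial nuclei CCL21 lies between 212 and 2433 CPM and above the open point in all 10 sows, whereas CCL2 in macrophages lies above it in 9.

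Between neighbouring classes in the order of mean levels, 61 pairs could be tested over at least 6 sows by an exact two-sided sign-flip permutation test. None passed after adjustment, although the leading step reached the smallest p that 10 sows allow (0.00195, adjusted 0.0596) for both CCL21 (lymphatic over blood endothelial, 4.35 on the log2 scale, 10 of 10 sows) and ACKR1 (blood endothelial over macrophage, 6.29, 10 of 10 sows). For CCL5 the step from T and NK to lymphatic endothelial nuclei was 4.05 (exact permutation p = 0.0078, adjusted 0.12, 9 of 10 sows). ACKR4 in fibroblast over epithelial nuclei gave 3.02 (exact permutation p = 0.0039, adjusted 0.079, 9 of 10 sows). The step from macrophage to myoepithelial nuclei for CXCL8 was 3.58 (exact permutation p = 0.012, adjusted 0.14, 8 of 10 sows). Pairs of 7 sows cannot go below a p of 0.0156 in this exact permutation test, and even the 2 at the smallest p of 10 sows did not pass. A pair that did not pass is therefore not shown to lie within the spread between sows.

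Other genes of the chemokine system were placed by the same tests; the list holds 42 symbols, of which 32 were found. In T and NK nuclei 12 of 18 list genes tested were called higher (9.84% of all genes), among them the ligand XCL1 (6.15 on the log2 scale), CXCR6 (5.67), CXCR3 (5.02), the ligand CCL4 (3.60), CCR9 (3.23), CCRL2 (2.78), CCR2 (2.59), CCR7 (2.26), CX3CR1 (2.24), CXCR4 (2.23) and CXCR5 (1.67). CXCR3 is the receptor of CXCL10, CCR7 of CCL21 and CXCR4 of CXCL12. Macrophage nuclei had 9 of 15 called higher (9.21%), among them CCL8 (4.96), CX3CR1 (3.82), CCRL2 (3.56), CCR1 (3.29), XCR1 (1.96), CXCR4 (1.74), CCL4 (1.73) and CCR2 (1.52). In lymphatic endothelial nuclei 2 of 11 were higher (9%), and both were atypical receptors: ACKR3 (4.54), which clears CXCL12, and ACKR2 (2.76), which clears inflammatory CC chemokines. Blood endothelial nuclei had 3 of 12 (8.73%), namely CCL26 (4.46), ACKR3 (2.33) and CCL4 (1.18). Fibroblast nuclei had 3 of 22 (9.73%), the CCR7 ligand CCL19 (2.62), ACKR3 (2.45) and CCR4 (1.41). CCL19 was also the only one of 16 in mural nuclei (4.31, beside 5.35% of all genes), as CCL11 was of 10 in myoepithelial nuclei (3.21, beside 5.85%) and CCL28, a mucosal chemokine that draws IgA plasma cells, of 24 in epithelial nuclei (2.56, beside 9.68%). Adipocyte nuclei had 0 of 20 (2.84%), and B and plasma nuclei 4 of 14 (4.76%), namely CCR9 (2.32), CCL8 (1.80), CX3CR1 (1.78) and CCL4 (1.68).

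Across the stages, levels over all nuclei of a gland differed widely between the 2 sows of a stage. CXCL2 measured 195 and 151 CPM (G90), 1207 and 969.5 (L0), 3243 and 121 (L20), 802 and 2587 (PI2), and 294 and 812 (PI7). CXCL8 followed with 8.2 and 3.0, 15.9 and 7.0, 31.7 and 0.7, 2.2 and 30.5, and 5.5 and 12.1 CPM at the same stages, so that the first gland of L20 and the second of PI2 were the 2 highest for both. LBP and ELF3, alike to CXCL2 over classes, had the same 2 highest glands, LBP at 1044 and 762 CPM against 8.6 to 206 in the others. CCL2 was 6.6 and 8.0 CPM (G90), 1.4 and 0.6 (L0), 64.4 and 14.2 (L20), 2.0 and 21.9 (PI2), and 25.7 and 11.9 (PI7). CXCL14 was low at L0 (1.0 and 0.4 CPM) and G90 (4.5 and 0.4), with 12.2 and 16.3 at L20, 11.4 and 0.8 at PI2, and highest at PI7 (31.3 and 30.9). CCL5 was likewise highest at PI7, at 43.0 and 49.7 CPM, against 2.7 to 28.9 in the other 8 glands. How many of all genes were highest in both PI7 glands is not given here. CCL21 measured 33.7 and 15.6 CPM (G90), 34.9 and 13.9 (L0), 42.0 and 68.6 (L20), 111 and 24.1 (PI2), and 93.2 and 126.9 (PI7), and CXCL12 9.4 and 4.8, 6.3 and 2.6, 9.0 and 55.0, 56.8 and 4.9, and 86.4 and 68.6 CPM in the same order. For both genes the stage mean was highest at PI7, at 110 CPM for CCL21 and 77.5 CPM for CXCL12. CXCL10 reached 69.3 CPM in the second G90 gland and 0.6 to 25.2 CPM in the other 9, ACKR1 ranged from 0.2 to 25.8 CPM and ACKR4 from 1.5 to 58.9 CPM, ACKR1 being highest in the first gland of L20 and ACKR4 in the second. In such whole-gland sums, fewer nuclei of a class and less RNA per nucleus cannot be told apart: T and NK markers summed to 410 and 461 CPM at PI7 and to 59.7 to 288 CPM in the other 8 glands. Lymphatic endothelial markers summed to 659 and 473 CPM at PI7, 589 in the first gland of PI2 and 575 in the second of L20. In the other glands they summed to 37.1 to 216 CPM.

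**Figure D3:**
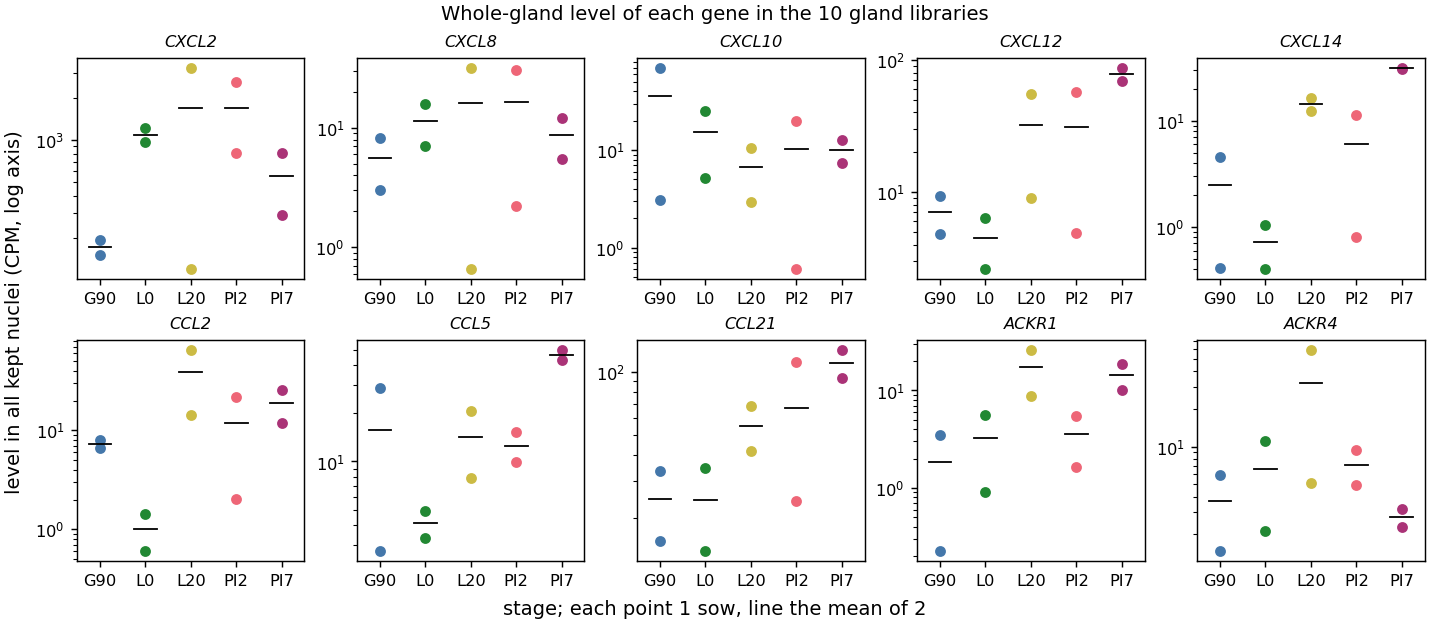
Level of each gene over all kept nuclei of a gland, in CPM on a log axis, by stage. Each point is 1 sow and each line the mean of the 2 sows of a stage. The 2 sows of L20 lie at 3243 and 121 CPM for CXCL2, farther apart than any pair of stage means.

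No gene of the 10 was called in any of 6 stage comparisons by edgeR (L0 against G90, L20 against L0, PI2 against L20, PI7 against PI2, involution against lactation, and any difference over the 5 stages), where 0% of the 22695 genes tested were called in each. At an unadjusted p under 0.05, 2, 2, 0, 0, 5 and 5 of the genes would have passed in that order, beside 7.28%, 12.8%, 3.6%, 2.04%, 6.91% and 10.1% of all genes. The largest step was CCL2 at L20 against L0, by 4.95 (SE 1.24; edgeR adjusted p = 0.18), and the next CXCL14 in the same comparison, by 3.76 (SE 1.18; edgeR adjusted p = 0.23). DESeq2, run as an alternative, called these 2 (DESeq2 adjusted p = 0.00026 and 0.0090), with 5.98% of all genes called in that comparison, and 4 genes (ACKR4, CXCL14, CCL2 and CXCL12) for any difference, where it called 7.46% of all genes. Between the 4 glands of involution and the 4 of lactation, the values were 1.96 (SE 0.68) for CXCL12, 1.58 (SE 0.56) for CCL5, 1.94 (SE 0.77) for CXCL14, 1.12 (SE 0.49) for CCL21 and -1.74 (SE 0.70) for ACKR4 on the log2 scale (edgeR adjusted p from 0.65 to 0.70). Single glands carried much of this: without the second gland of L20 the ACKR4 difference was -0.70, and without the first gland of PI2 CXCL12 was at 0.69, CXCL14 at 0.52 and CCL21 at 0.42. Without the first gland of L20, CCL2 at L20 against L0 was at 3.07. Without both glands whose milk genes went against their labels, the differences between involution and lactation were 3.04 (SE 0.48) for CXCL12, 1.91 (SE 0.65) for CCL5, 2.33 (SE 0.70) for CXCL14, 1.48 (SE 0.48) for CCL21 and -1.01 (SE 0.68) for ACKR4. In that fit edgeR called CXCL12 (adjusted p = 0.025, beside 0.778% of all genes), CCL2 at L20 against L0 (5.76, SE 0.71, edgeR adjusted p = 0.012, beside 0.648%), and CXCL2, CXCL14, CCL2 and CXCL12 for any difference (edgeR adjusted p = 0.030, 0.032, 0.0076 and 0.010, beside 3.24%). The 2 glands were chosen from their own values, and L20 and PI2 then had 1 gland each. The median log2 difference of the 10 genes between involution and lactation was 0.50, and that of all genes 0.03. With 2 sows a stage and a biological coefficient of variation of 0.555 between sows, only large differences can pass.

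Within classes, levels of ACKR4 and CXCL12 in fibroblast nuclei are given for lactation and involution. How many of all genes separate these glands in the same way is not given here. The second gland of L0 had only 49 fibroblast nuclei (65800 UMIs in all), so its values rest on few counts. For ACKR4 the 4 lactating glands measured 30.8 to 109 CPM and the 4 involuting glands 6.3 to 15.6 CPM, and both G90 glands (66.3 and 37.9) lay in the range of lactation. The difference was -2.54 (SE 0.52) on the log2 scale with an unadjusted p of 0.000225, yet it did not pass adjustment over 13333 genes (edgeR adjusted p = 0.54). DESeq2 called it, at -2.62 (SE 0.56; DESeq2 adjusted p = 0.0053), and so did edgeR without the first gland of L20 (-2.86, edgeR adjusted p = 0.024), while it was not called in the other 13 of 15 alternative settings. Without the second glands of L20 and PI2, the remaining glands measured 30.8 to 60.8 CPM in lactation and 6.3 to 15.6 CPM in involution, a difference of -1.88 (SE 0.51; edgeR adjusted p = 0.083). Adipocyte markers in the same fibroblast nuclei summed to 47.1 to 269.8 CPM in the lactating and 101 to 249.6 CPM in the involuting glands, and their part in the difference was not tested. In nuclei without 2 or more markers of another class, ACKR4 measured 30.4 to 122 CPM in the lactating and 5.97 to 14.0 CPM in the involuting glands. CXCL12 in fibroblast nuclei went the other way, from 76.0 to 134 CPM in lactation to 152 to 445 CPM in involution (1.54, SE 0.48, edgeR unadjusted p = 0.0067, edgeR adjusted p = 0.78). Its G90 glands measured 49.7 and 192 CPM, the second within the range of involution. Without the second glands of L20 and PI2 the CXCL12 difference was 1.89 (SE 0.47).

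In epithelial nuclei, CXCL12, CCL5 and CXCL14 had low levels that were higher in involution than in lactation by 2.35 (SE 0.57), 1.86 (SE 0.44) and 2.36 (SE 0.70) on the log2 scale (edgeR adjusted p = 0.26, 0.26 and 0.31). DESeq2 called these 3, at 2.32 (SE 0.55), 1.83 (SE 0.46) and 2.33 (SE 0.65) with adjusted p = 0.0035, 0.0066 and 0.022. Without the first gland of PI2 the CXCL12 and CXCL14 differences were 1.28 and 1.40. Without the second gland of PI2 edgeR called CXCL12 (2.81, edgeR adjusted p = 0.047), and without that gland and the second of L20 it was called at 2.82 (SE 0.43; edgeR adjusted p = 0.022). Each differed in the same direction in the whole gland, and free RNA of other classes in epithelial nuclei was not tested. In macrophage nuclei CXCL14 differed over the stages at an unadjusted p of 0.000627 (edgeR adjusted p = 0.15), and CCL2 at 0.0038 (edgeR adjusted p = 0.35). The filter on low counts left all 10 genes in epithelial and fibroblast nuclei, 8 in blood endothelial, 4 in lymphatic endothelial, 7 in macrophage and 3 in T and NK nuclei. Over both questions, 0 of 84 tests of these genes within 6 classes passed in edgeR, with 27 at an unadjusted p under 0.05, beside 7.23% of such tests over all genes. DESeq2 called 14 of the 94 to which it gave an adjusted p, beside 1.66% over all genes. Without the second glands of L20 and PI2 edgeR called 23 of 98, beside 2.56% over all genes. For involution against lactation these were, besides CXCL12 in epithelial nuclei, CXCL2 in fibroblast (-2.22, SE 0.41; edgeR adjusted p = 0.0060) and lymphatic endothelial nuclei (-1.45, SE 0.39; edgeR adjusted p = 0.044), ACKR1 in blood endothelial (-1.83, SE 0.42; edgeR adjusted p = 0.045) and CCL5 in lymphatic endothelial nuclei (-2.81, SE 0.63; edgeR adjusted p = 0.0073). With all 10 glands, over the 5 stages edgeR called 0.11% of all genes in epithelial, 0.0075% in fibroblast, 0.0106% in blood endothelial, 0.132% in lymphatic endothelial, 0.0342% in macrophage and 0.111% in T and NK nuclei, and between involution and lactation 0.0203% in lymphatic endothelial nuclei and 0% in the other 5.

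Milk held another set of cells. After the same limits, 17571 cells remained at L0 and 14514 at L20, of which the gate placed 9524 and 5967 as neutrophil, 3228 and 1305 as epithelial, 628 and 1710 as macrophage and 335 and 1136 as T and NK. With 1 library each, no test was possible. The barcodes of the 2 libraries overlapped by 284 (1.52% of the smaller). CXCL8 was at 5544 CPM of all milk UMIs at L0 (95% Poisson interval 5527 to 5560) and 6001 at L20 (5978 to 6024), where the gland libraries lay between 0.7 and 31.7 CPM. Milk values are from whole cells and gland values from nuclei, so the 2 are unlike measures. Of the classes named, neutrophils had the highest level per UMI, at 25094 CPM at L0 and 15559 at L20, and epithelial cells had 591 and 759 CPM. Gated neutrophils held 333838 of the 449002 CXCL8 UMIs at L0 and 129885 of 257734 at L20. Thinned to 1000 UMIs, 94.0% and 92.1% of neutrophils had a CXCL8 UMI, and so had 40.2% and 39.1% of epithelial cells (unthinned 96.8% and 95%, and 94.5% and 68.6%, at median depths of 1207 and 1148 UMIs in neutrophils and 16108 and 2595 in epithelial cells). T and NK cells had 1120.2 and 1407 CPM, and 40.8% and 40.4% of them had a UMI after thinning (60% and 54.1% unthinned, at median depths of 1660 and 1619 UMIs). Per cell, neutrophils held 35.1 and 21.8 CXCL8 UMIs on average and macrophages 8.8 and 16.8. Epithelial cells held 10.5 and 5.8 and T and NK cells 2.1 and 2.7. The part of free RNA in the epithelial level was not tested.

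CXCL2 in milk was at 5559 CPM in neutrophils at L0 and 4523 at L20, and in epithelial cells at 2810 and 1241, both above T and NK cells (422 and 355). These are levels per UMI, not per cell. With a gate of 3 markers, 3021 epithelial cells at L0 held 160383 CXCL2 UMIs and 6869 neutrophils 53103, so more per epithelial cell. At L20, 1107 epithelial cells held 12065, 3793 neutrophils 24350 and 1485 macrophages 30402 (2039 CPM), fewest of these per neutrophil. Without cells that held 2 or more markers of another class, the order of neutrophils and epithelial cells turned at L20. There 5473 neutrophils held 32309 and 1015 epithelial cells 4947. Epithelial cells were deeper, with median depths of 16108 and 2595 UMIs against 1207 and 1148 in neutrophils. CCL5 was highest in T and NK cells, at 14906 and 13770 CPM, and thinned to 1000 UMIs 77.5% and 71.2% of these had a UMI, beside 10.5% and 15% of epithelial cells. Neutrophils had 2081 and 3256 CPM of CCL5, with a UMI in 39.2% and 53.3% of thinned cells (43.5% and 54.6% unthinned, beside 58.6% and 37.7% of epithelial cells). That came to 2.9 and 4.6 CCL5 UMIs per neutrophil, beside 2.1 and 2.0 per epithelial cell and 10.7 and 9.1 per macrophage (1677 and 1003 CPM), and the part of free RNA in it was not tested. Without cells that held 2 or more markers of another class, macrophages had 3364 and 1826 CPM of CCL5. CCL2 was highest in macrophages and differed between the libraries: 356 CPM in macrophages at L0 (338 to 375) and 2254 at L20 (2230 to 2278), with 9.4% and 40.6% of thinned macrophages holding a UMI, while neutrophils had 30.7 and 384 CPM. The neutrophil values of CCL2 depended on the filter: they were 10.0 and 181 CPM without cells that held 2 or more markers of another class, and 58.9 and 957 CPM in cells kept at 500 genes or more with no more than 10% of UMIs mitochondrial. CXCL14 was again a macrophage gene of milk, at 484 and 803 CPM there (426 and 444 CPM without cells that held 2 or more markers of another class) and at 4.7 and 4.6 CPM in epithelial cells. CXCL10 was low, at 53.3 CPM in macrophages at L0 and 41.9 in neutrophils at L20. The macrophage value was 157 CPM after the same removal and 23.1 CPM with a gate of 3 markers. The genes of stroma and vessels were nearly missing from milk, with 14 and 4 CXCL12 UMIs and 1 and 0 ACKR1 UMIs among 80995806 and 42948881 UMIs; taken as 3 counts, the limit that the count of 0 allows is 0.0699 CPM. CCL21 and ACKR4 came to 7.10 and 5.33 CPM and to 2.59 and 1.96 CPM.

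**Figure D4:**
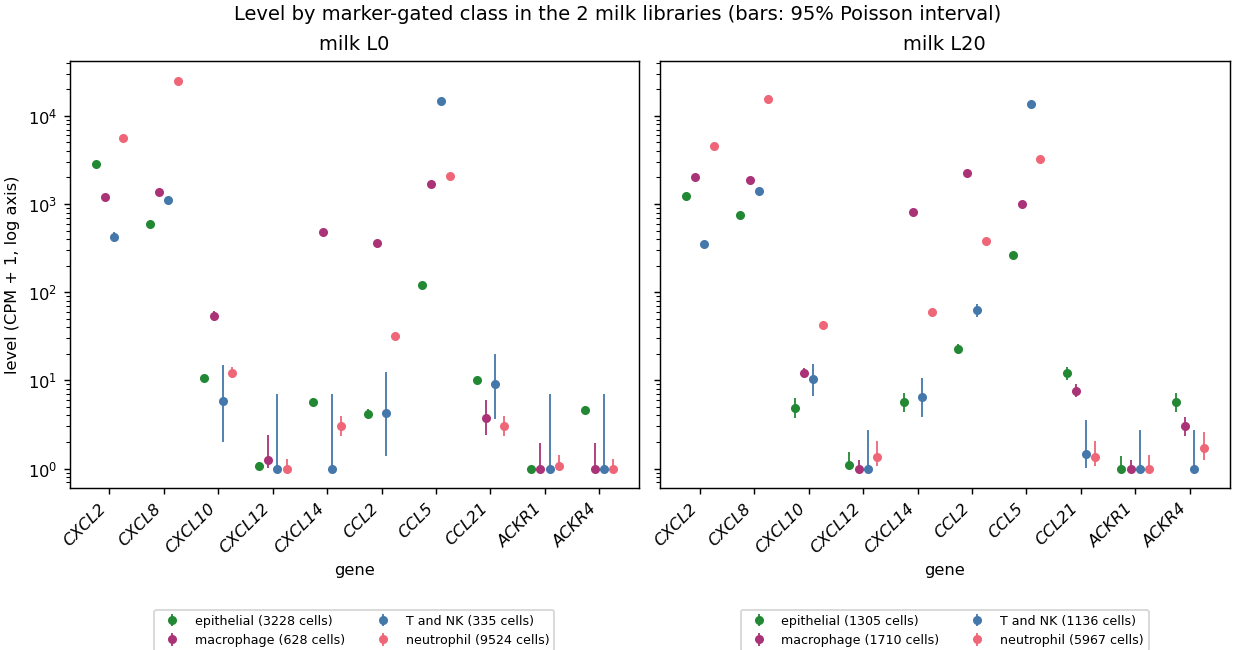
Level of each gene in 4 marker-gated classes of the milk libraries L0 and L20, as CPM + 1 on a log axis, with bars for the 95% Poisson interval of counting error. Per UMI, neutrophils lead for CXCL8 and CXCL2, T and NK cells for CCL5, and macrophages for CCL2 and CXCL14. CXCL12 and ACKR1 lie at the bottom in all 4 classes.

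In the tissue sections a spot can hold several cells. The G90 section had 4721 spots and 42815421 UMIs, the PI2 section 2248 spots and 17906403 UMIs, and their difference is between 2 sections, not 2 stages. Levels over all spots were 47.5 CPM (95% Poisson interval 45.5 to 49.6) at G90 and 255 (248 to 263) at PI2 for CCL5, 31.5 (29.8 to 33.2) and 170 (164 to 176) for CXCL12, 43.4 (41.5 to 45.5) and 143 (137 to 148) for CXCL14, and 41.0 (39.1 to 42.9) and 133 (127 to 138) for CXCL2. Lower in the PI2 section were CXCL10, at 37.7 (35.9 to 39.6) against 8.15 (6.88 to 9.59), and CCL2, at 30.5 (28.9 to 32.3) against 18.2 (16.3 to 20.3). CXCL8, with 21 and 43 UMIs, and ACKR4, with 81 and 24, were close to the limit of detection.

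Spots were grouped by the summed level of the class markers, the top 10% against the other 90%. In the top lymphatic endothelial spots CCL21 was 35.8 times the level of the other spots at G90 (95% interval 26.6 to 48.5) and 42.9 times at PI2 (32.0 to 58.0), on 129 and 128 UMIs. CCL21 was also raised in blood endothelial (9.47 and 5.48 times), fibroblast (3.54 and 13.2 times) and adipocyte spots (5.78 and 2.42 times). ACKR1 in blood endothelial spots was 16.5 times (14.6 to 18.6) and 6.21 times (5.46 to 7.07) the level elsewhere. ACKR4 was 17.7 times higher in the adipocyte spots of G90 (10.7 to 28.7, on 27 UMIs) and 7.05 times in its fibroblast spots (3.81 to 12.3), while its 24 UMIs in the whole PI2 section were too few to describe it there. At G90 it was also 4.48 times (2.37 to 7.93) higher in lymphatic and 3.66 times (2.04 to 6.26) in blood endothelial spots. CXCL2 was 3.02 (2.68 to 3.38) and 4.35 times (3.99 to 4.75) higher in epithelial spots, beside 3.14 (2.80 to 3.51) and 3.91 times (3.58 to 4.26) in myoepithelial spots, and CXCL12 2.85 (2.35 to 3.44) and 1.65 times (1.38 to 1.95) in fibroblast spots. In blood endothelial spots CXCL12 was at 1.83 (1.54 to 2.15) and 0.95 times (0.82 to 1.1) the level elsewhere. Mural spots were among the others with more CXCL12, at 1.51 (1.26 to 1.80) and 1.66 times (1.48 to 1.86). The T cell attractants were higher in T and NK spots: CCL5 by 1.65 (1.45 to 1.88) and 1.69 times (1.55 to 1.85), and CXCL10 by 2.11 (1.85 to 2.41) and 4.60 times (3.14 to 6.62). Other spot groups were raised as well, with CXCL10 at 3.08 times (2.05 to 4.55) in macrophage spots of PI2, and CCL5 at 1.51 times (1.32 to 1.73) in myoepithelial and 1.35 times (1.16 to 1.55) in epithelial spots of G90 and 1.37 times (1.26 to 1.5) in macrophage spots of PI2. In the fibroblast spots of G90 the ratio of CXCL10 was 0.84 (0.61 to 1.13). For CXCL14, the ratio in myoepithelial spots was 1.02 (0.87 to 1.2) and 0.88 (0.76 to 1), so that the order of nuclei was not seen in spots. Spots of the fibroblast, adipocyte and lymphatic groups were shallow, with median UMIs of 1924, 1805.5 and 3394.5 at G90 against 8858, 8885 and 8761 in the remaining spots.

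**Figure D5:**
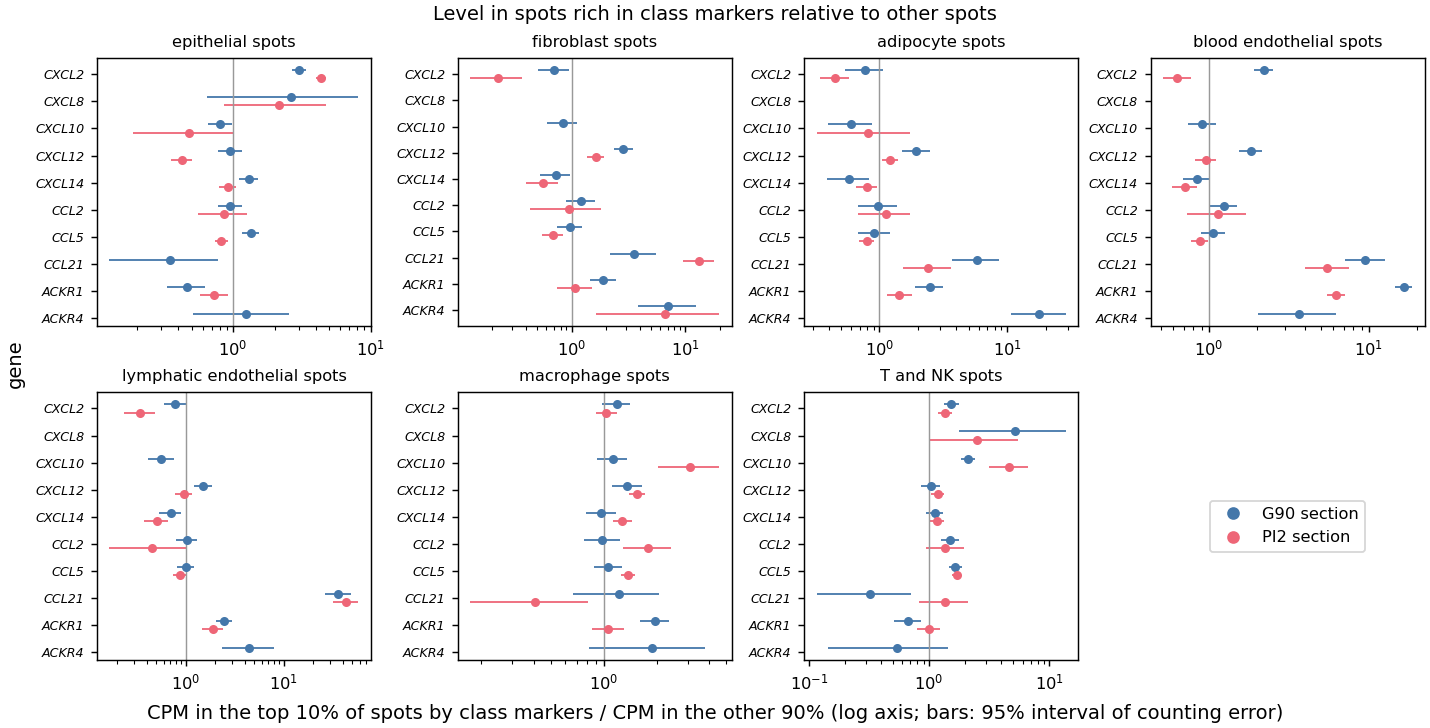
Ratio of the level (CPM) in the 10% of spots with the highest summed class markers to that in the other 90%, for 7 class lists, in the G90 and PI2 sections, on a log axis with 95% intervals of counting error. Ratios with 3 or fewer UMIs on a side are left out. CCL21 stands at 35.8 and 42.9 in lymphatic endothelial spots and ACKR1 at 16.5 and 6.21 in blood endothelial spots.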

How the data were processed

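The authors deposited UMI counts per gene and barcode for 10 gland libraries of single nuclei (each from a separate sow), 2 sections and 2 milk samples, aligned to Sscrofa11.1; for the annotation release, the sources used here give none. The deposited counts had no stated removal of free RNA, and no doublet caller was run here. Nuclei, and milk cells alike, were kept at 300 genes or more and at most 25% mitochondrial UMIs, and took the class with the most distinct markers detected (at least 2, with no tie; 82 of 85 listed markers found). The 10 genes, the chemokine list and the markers were chosen with earlier results of these data known. UMIs were summed per sow, or per class and sow with 20 nuclei or more, and tested with edgeR 4.0.16 (quasi-likelihood, TMM, filterByExpr, Benjamini-Hochberg over all genes tested, in R 4.3.3), calls needing an adjusted p under 0.05 and a log2 fold change over 1. For any difference over the stages only the adjusted p was used. Neighbouring classes were compared by sign flips over sows on log2(CPM + 1), in at least 6 sows.

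Besides the 10 genes, the text names for each the 3 genes with the highest Pearson correlation on log2(CPM + 10) among genes with a mean of 10 CPM or more, and the listed chemokine system genes called in the same comparison. Some of these genes are not reported here. Milk and sections have 1 library a group and no test, and their exact Poisson and ratio intervals cover counting error only. Gland libraries held 18962138 to 53165191 UMIs and milk 84971814 and 46923887, so low genes are limited by depth. Shares of nuclei with a UMI were also taken after thinning to 1000 UMIs. Alternatives were DESeq2 1.42.0, other filters, gates, blocks and rests, a replicate block, and each gland left out. The scripts were tested on simulated data. Promoter windows came from RefSeq (Sscrofa11.1), matched by symbol for all 10 genes.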

Additional observations from a re-analysis of the deposited data

Results flagged for a closer look

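In the whole gland, 20 groups of 4 glands (10 genes in lactation and in involution) were searched for a gland far from the other 3, and 2 stood out, both of them the second gland of L20. CXCL12 was 55.0 CPM there and 2.6 to 9.0 CPM in the other 3 lactating glands, a gap of 0.878 of the group's range against a critical value of 0.829. ACKR4 was 58.9 CPM there and 2.1 to 11.12 CPM in the other 3, a gap of 0.841. Chance flags about 1 in 20 groups. That gland had 32.6% fibroblast nuclei and 525 adipocyte nuclei. ACKR4 was called higher in both classes, and CXCL12 higher in fibroblast and lower in adipocyte nuclei. Within its fibroblast nuclei CXCL12 was 134 CPM, beside 76.0 to 127 CPM in the other 3 lactating glands, and ACKR4 was 109 CPM, beside 30.8 to 60.8 CPM. Against its label, it had 5.67 CPM of CSN2 and 1.37 CPM of LALBA, where the other 3 had at least 192 and 133 CPM. The part of class sizes in these levels was not tested.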

How the results depend on the processing

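No call of a gene in a class reversed under any alternative, and 12 of the 15 held under each one that could be run. CCL2 in mural nuclei was lost once nuclei with 2 or more markers of another class were removed (1.61, with 0 of the 10 genes then higher there). CXCL10 in fibroblast nuclei was lost without the sow block and after that removal, and CXCL10 in blood endothelial nuclei under those 2, without the filter on low counts, with stricter nuclei, and without the second gland of G90 or of L0. The cause was not tested. ACKR4 in fibroblast nuclei ranged from -2.86 to -1.88 between involution and lactation, and CXCL12 from 1.13 to 1.89.

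DESeq2 called far more genes between stages. In the whole gland it called 378 for L0 against G90, 1118 for L20 against L0 (2 of the 10 genes), 25 for PI2 against L20, 15 for PI7 against PI2, 186 for involution against lactation and 1518 for any difference (4 of the 10), where edgeR called 0. Within classes it called for any difference, and then for involution against lactation, 2085 and 460 genes in epithelial nuclei (6 and 3 of the 10), 146 and 26 in fibroblast (2 and 1), 35 and 10 in blood endothelial, 30 and 6 in lymphatic endothelial, 109 and 1 in macrophage (2 and 0) and 36 and 1 in T and NK nuclei. It called 1567 genes higher in myoepithelial, 2359 in macrophage, 3772 in T and NK and 2492 in B and plasma nuclei. Without the filter on low counts edgeR called 33, 269 (1 of the 10), 3, 29 and 614 (3 of the 10) genes in the whole gland for L0 against G90, L20 against L0, PI2 against L20, involution against lactation and any difference, and 2314 higher in T and NK nuclei. With only the groups compared, L0 against G90 gave 407 genes (1 of the 10).

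Leaving out both glands whose milk genes went against their labels, the second of L20 and of PI2, was chosen after seeing the data, and the lone glands of these stages were then assumed to vary like the others. In the whole gland edgeR then called 101 genes for L0 against G90, 150 for L20 against L0 (1 of the 10), 180 for involution against lactation (1) and 750 for any difference (4). Within classes it called, for any difference and then for involution against lactation, 1706 and 449 genes in epithelial (5 and 1 of the 10), 528 and 186 in fibroblast (5 and 1), 184 and 111 in blood endothelial (1 and 1), 423 and 151 in lymphatic endothelial (3 and 2), 119 and 23 in macrophage (3 and 0) and 60 and 23 in T and NK nuclei (1 and 0).

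Replicate numbers did not pair the glands: same-numbered deviations correlated at -0.522 to 0.388, over 0.1 in 2 of 10 pairs of stages. The replicate block left the whole-gland counts at 0 and gave 5 genes in epithelial, 2 in fibroblast and 20 in lymphatic endothelial nuclei for any difference, and 6 in the last for involution against lactation.

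Removing nuclei with markers of another class gave 2 genes in fibroblast, 2 in blood endothelial, 6 in macrophage and 4 in T and NK nuclei for any difference. A gate of 3 markers gave 107 and 36 genes in lymphatic endothelial nuclei and 25 in T and NK nuclei (1 of the 10). Nuclei without a class, added to the rest, left 1078 genes higher in epithelial nuclei. Without the sow block 178 were higher in adipocyte and 313 in B and plasma nuclei, and 412 in the latter at 50 nuclei per sow.

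In milk, a gate of 3 markers gave 5204 and 4292 CPM for CXCL2 and 24661 and 13737 for CXCL8 in neutrophils of L0 and L20, 23.1 for CXCL10 in macrophages of L0 and 29.3 in neutrophils of L20, 531 and 825 for CXCL14 and, at L0, 380.04 for CCL2 in macrophages, and 15468 and 14632 for CCL5 in T and NK cells. At 500 genes and 10% mitochondrial UMIs the values were 4349 and 3607 for CXCL2, 18776 and 9278 for CXCL8, 14457 and 14049 for CCL5 and, at L20, 2309 for CCL2. Without milk cells that held 2 or more markers of another class, an alternative chosen after seeing the data, the values at L0 and L20 were 5696 and 4613 for CXCL2, 26582 and 17324 for CXCL8 and 15515 and 13418 for CCL5, in the same classes, 426 and 444 for CXCL14 and 299.6 and 3246 for CCL2 in macrophages, 157 (macrophages) and 47.5 (neutrophils) for CXCL10, and, in epithelial cells, 1.35 and 8.40 for ACKR4 and, at L0, 10.3 for CCL21. Thinned shares were 94.0% and 92.1% for CXCL8, 71.2% for CCL5 at L20, and 9.43% and 40.6% for CCL2. With the top 20% of spots, ratios at G90 and PI2 were 2.23 and 3.16 for CXCL2, 18.9 and 20.8 for CCL21, 10.5 and 4.40 for ACKR1, and 2.29 for CXCL12 (G90), 1.63 for CXCL10 (G90) and 1.49 for CCL5 (PI2).

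With 1 gland left out in turn, whole-gland counts of genes called ran from 0 to 15 for L20 against L0, 0 to 1 for involution against lactation and 0 to 136 for any difference (highest without the first PI2 gland), with 0 of the 10 genes each time. Within classes they ran, for any difference, from 0 to 661 in epithelial (0 to 3 of the 10 genes; highest without the first PI2 gland), 0 to 69 in fibroblast (0 to 2), 1 to 32 in blood endothelial (0 to 1), 8 to 184 in lymphatic endothelial (0 to 3) and 0 to 31 in macrophage nuclei (0 to 1), these 4 highest without the first L20 gland, and from 7 to 114 in T and NK nuclei (0). For involution against lactation they ran from 0 to 15 in epithelial (0 to 1), 0 to 10 in fibroblast (0 to 1), 0 to 33 in lymphatic endothelial (0 to 1), 0 to 2 in macrophage and 0 to 38 in T and NK nuclei. The numbers of the 10 genes higher in a class ran from 1 to 2 in myoepithelial, 3 to 4 in fibroblast, 2 to 3 in blood endothelial, 1 to 2 in lymphatic endothelial and 3 to 4 in macrophage nuclei.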
